A study of Mus musculus with 18 samples.

Results

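The genes described here are 10 members of the Notch response and of the segmentation clock: Hes1, Hes5, Hes6, Hes7, Hey1, Hey2, Heyl, Nrarp, Lfng and Dtx1. They were followed through embryoid bodies in which the mesodermal transcription factor Msgn1 had been switched on. A probe set, the group of short probes that reports a transcript on an Affymetrix array, was a member if its annotation gave exactly 1 gene symbol and that symbol was among the 10. This rule found 17 probe sets among 45101 on the array, or among 34945 with 1 gene symbol. Of the 17, 13 passed the filter on dim probe sets, and all 10 genes kept at least 1. The other 4, a further probe set each of Hes5, Heyl, Lfng and Dtx1, reached the filter in no group and were not tested.

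Notch is a receptor that is cut after contact with a ligand on a neighbouring cell, and its freed inner part joins the DNA-binding protein Rbpj to activate target genes. Many Hes and Hey genes, among them Hes1, are classical targets that encode basic helix-loop-helix repressors, while Hes6 antagonises Hes1. In the presomitic mesoderm, the tissue that is divided into somites, Hes1, Hes7, Lfng and Nrarp are expressed in repeating waves, which makes them part of the segmentation clock. An array averages over all cells of a sample, so the values carry a mean level and no phase of such a wave.

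The cells were A2loxFMsgn1 mouse embryonic stem cells of strain 129P2, which carry a Flag-tagged Msgn1 under doxycycline control and had been grown on mitomycin-treated embryonic fibroblasts. Induced embryoid bodies received 1 µg/ml doxycycline from day 2 of differentiation and uninduced ones received none, and both were collected 12, 24 and 48 h later. Each of these 6 groups had 3 arrays, which the labels call biological replicates without naming separate cultures, so p-values measure the spread between these samples. All groups carried the cassette, and no group received doxycycline without it. The submitters' protocol places the onset of endogenous presomitic markers at day 3 of culture, so the induction was meant to come ahead of it.

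Promoters are shown first for 3 genes that rose at different times after induction (Hes6, Nrarp and Hey2) and for the clock gene Lfng, which passed no test. The RefSeq table of build GRCm38.p6 held 7 of the 10 genes, in 8 windows, and the 250 bases before the start are given 5′ to 3′ on the gene's strand. Hes6 (55927, the number being the Entrez gene identifier) lies on chromosome 1 from 91411483 to 91414038, Nrarp (67122) on chromosome 2 from 25180758 to 25183339, Hey2 (15214) on chromosome 10 from 30832359 to 30842783, and Lfng (16848) on chromosome 5 from 140607341 to 140615545. All 4 windows lie outside the annotated gene, next to its start. Capitals mark TGGGAA, the core that Rbpj binds, read on either strand, and CANNTG, the E-box that basic helix-loop-helix proteins bind.
Hes6, chr1:91414039-91414288, minus strand: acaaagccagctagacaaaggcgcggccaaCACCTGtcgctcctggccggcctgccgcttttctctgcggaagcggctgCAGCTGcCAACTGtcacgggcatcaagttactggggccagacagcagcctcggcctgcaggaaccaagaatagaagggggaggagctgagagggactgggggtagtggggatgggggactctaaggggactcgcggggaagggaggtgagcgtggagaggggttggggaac
Nrarp, chr2:25180508-25180757, plus strand: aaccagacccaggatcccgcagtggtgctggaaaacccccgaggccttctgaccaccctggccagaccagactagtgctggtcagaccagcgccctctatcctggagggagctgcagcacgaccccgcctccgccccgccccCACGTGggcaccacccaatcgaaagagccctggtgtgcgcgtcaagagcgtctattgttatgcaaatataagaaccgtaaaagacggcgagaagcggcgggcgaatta
Hey2, chr10:30842784-30843033, minus strand: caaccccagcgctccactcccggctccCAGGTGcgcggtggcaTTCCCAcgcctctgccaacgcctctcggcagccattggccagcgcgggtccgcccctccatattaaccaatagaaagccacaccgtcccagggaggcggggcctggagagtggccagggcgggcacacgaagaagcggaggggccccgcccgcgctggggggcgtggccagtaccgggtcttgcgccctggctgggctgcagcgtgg
Lfng, chr5:140607091-140607340, plus strand: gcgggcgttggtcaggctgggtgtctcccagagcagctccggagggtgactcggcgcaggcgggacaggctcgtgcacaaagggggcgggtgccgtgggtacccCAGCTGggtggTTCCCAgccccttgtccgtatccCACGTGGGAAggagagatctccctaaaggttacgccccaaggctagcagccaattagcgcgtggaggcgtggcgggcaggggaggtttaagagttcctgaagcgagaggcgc

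The printed Hes6 window held 3 E-boxes and no TGGGAA, and that of Nrarp held 1 E-box and no TGGGAA. The Hey2 window held 1 of each, with TTCCCA, the reverse complement of TGGGAA, from 207 to 202 bases before the start. The Lfng window held 2 of each, and the E-box from 112 to 107 bases before the start overlaps the TGGGAA from 108 to 103. Among windows not printed, Hes5 held 2 TGGGAA and 1 E-box, Hes7 1 TGGGAA and 2 E-boxes, the other Hes6 window 1 E-box, and Dtx1 neither. Of 32851 promoter windows of the same length, 21.6% held TGGGAA, 2.77% held at least 2 of them and 66.2% held an E-box. These are letter matches in a short window, not measured binding.

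Facts of the whole series are brief. Signals ran from 0.0187 to 16866 in array units on a linear scale, array medians from 18.8 to 22.1, and replicates of a group correlated at 0.990 to 0.993. Msgn1, the induced gene, stood at 44.5 to 76.8 in the 9 induced arrays and at 4.69 to 25.2 in the 9 uninduced arrays, so all arrays followed their labels. No source used here tells if its probe set reads the cassette, the endogenous transcript or both. Each change below is the later or induced mean of log2(signal + 32) minus the other, with its standard error from a limma fit over 25895 probe sets, where 32 was added to damp the noise of dim signals. A change was called at a Benjamini-Hochberg adjusted p under 0.05, and a fold refers to signal + 32. A signal is comparable between arrays for 1 probe set, not between probe sets, and the 3 arrays per group limit every precision.

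The members called after Msgn1 induction changed from time to time. At 12 h only Hes6 was called, by both of its probe sets. At 24 h Hes6 was still higher and Nrarp was higher as well. By 48 h Hes6 no longer passed, while Nrarp, Hey2, Hey1 and Hes7 were higher and Dtx1 was lower. Hes1, Hes5, Heyl and Lfng were called at none of the 3 times.

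At 12 h, 2 of 13 member probe sets were called, both higher, where 0.653% of all probe sets were called in either direction. At 24 h the count was 3 of 13, all higher, against 2.33% of all, and at 48 h it was 4 higher and 1 lower, against 8.93% of all. The 3 induced arrays stood clear of the 3 uninduced arrays in 3 member probe sets at 12 h, all higher, where 17.0% of all probe sets did so. At 24 h 6 did so, all higher, against 16.3% of all, and at 48 h 5 higher and 3 lower, against 25.8%. The median change of the 13 was 0.15, 0.28 and 0.18 at 12, 24 and 48 h, and the median over all probe sets lay between 0.000615 and 0.00214.

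**Figure D1:**
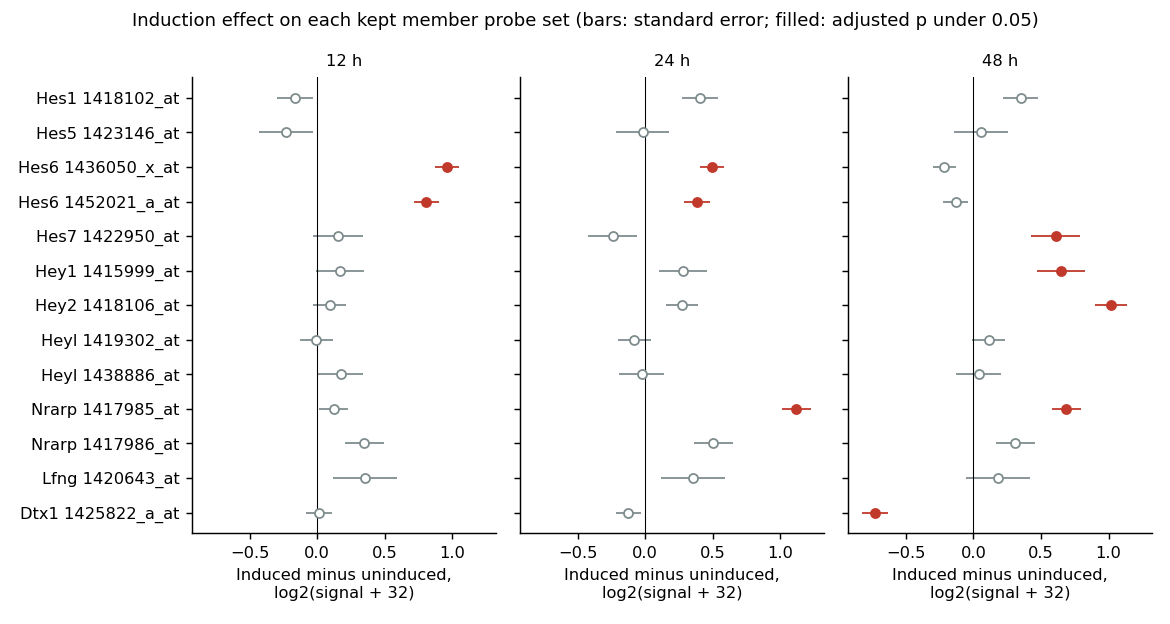
Induction effect on each of the 13 kept member probe sets at 12, 24 and 48 h. The x axis is the difference of log2(signal + 32), induced minus uninduced, bars are standard errors, and filled points have an adjusted p under 0.05. The filled points move from Hes6 at 12 h (0.96 and 0.81) to Hey2 (1.02), Nrarp (0.69), Hey1 (0.65), Hes7 (0.61) and Dtx1 (-0.73) at 48 h.

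Hes6 encodes a member of the Hes family that antagonises Hes1 and favours neuronal differentiation. Its probe set 1436050_x_at gave signals of 495, 438.5 and 457 in the 3 uninduced arrays at 12 h and of 997.5, 903.5 and 892 in the induced ones. Every induced array was thus well above every uninduced array, and the change was 0.96 ± 0.0883, a 1.94-fold rise (limma adjusted p = 9.31e-07). The second probe set, 1452021_a_at, read 212, 201 and 215 against 424, 364 and 386, again with no overlap, a change of 0.81 ± 0.0944 (limma adjusted p = 2.76e-05). The suffix x marks probes that may match other transcripts and the suffix a marks probes shared by transcripts of 1 gene. In bulk RNA, here and below, a change in the number of cells that express a gene cannot be told apart from a change in RNA per cell.

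At 24 h the first Hes6 probe set read 554, 597 and 562 without and 879.5, 836 and 742.5 with induction. The groups still did not overlap, and the change had the smaller size of 0.50 ± 0.0883 (limma adjusted p = 0.00221). The second probe set read 279, 314 and 285 against 461, 383 and 339, a change of 0.38 ± 0.0944 (limma adjusted p = 0.0308). That call was lost without uninduced 24 h replicate 1 or 3 or without induced 24 h replicate 1 or 2 (limma adjusted p up to 0.178), and also when the fit held only the arrays of the comparison (limma adjusted p = 0.212).

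At 48 h the order of the Hes6 groups had turned. The first probe set read 401, 398 and 439 in uninduced and 301, 382 and 375 in induced arrays. All induced arrays were the lower ones, yet the change of -0.21 ± 0.0883 did not pass (limma adjusted p = 0.158). The second probe set read 190, 191 and 204.5 against 167, 188 and 172, also with no overlap, and stood at -0.13 ± 0.0944 (limma adjusted p = 0.494).

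Over time, Hes6 fell between 24 and 48 h in both arms, and more in the induced one. Its first probe set changed by -0.44 ± 0.0883 in uninduced and by -1.15 ± 0.0883 in induced embryoid bodies (limma adjusted p = 0.00103 and 3.66e-09), and the second by -0.52 ± 0.0944 and -1.03 ± 0.0944 (limma adjusted p = 4.29e-04 and 4.88e-08). From 12 to 24 h the uninduced arm stood higher by 0.43 ± 0.0944 in the second probe set (limma adjusted p = 0.0187) and by 0.28 ± 0.0883 in the first, which did not pass (limma adjusted p = 0.0937). The call on the second was lost without uninduced 12 h replicate 1 or 2 or without uninduced 24 h replicate 2 (limma adjusted p up to 0.0971), and with only the arrays of the comparison (limma adjusted p = 0.0723). Between the same times, the induced arm gave -0.18 ± 0.0883 and 0.0025 ± 0.0944 in the 2 probe sets, neither called.

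**Figure D2:**
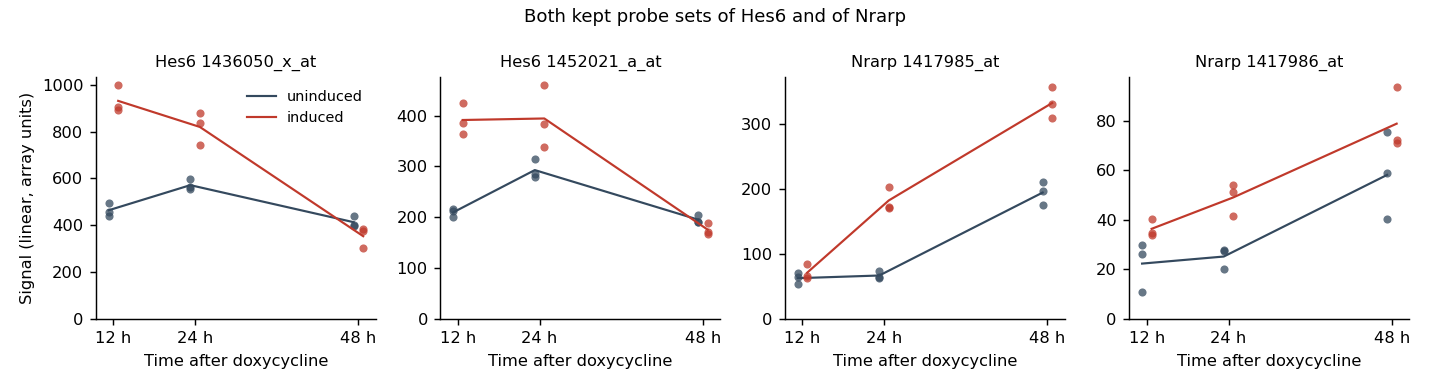
Linear signal of the 2 kept probe sets of Hes6 and the 2 of Nrarp at 12, 24 and 48 h after doxycycline; each point is 1 array, offset slightly in time by arm, and lines join group means. Both Hes6 probe sets are highest in induced arrays at 12 and 24 h and lowest in them at 48 h, while both Nrarp probe sets are highest at 48 h in both arms.

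The rise of Hes6 at 12 h came with a rise of Neurod1. Of the 6 neural genes tested, 1 rose at 12 h, this neurogenic transcription factor gene, by 1.24 ± 0.131 (limma adjusted p = 6.14e-06). By probe set this was 2 of 12, where 0.653% of all probe sets were called. The summed signal of the 8 neural genes on the array was 537 to 550 in uninduced and 896 to 1027 in induced arrays at 12 h, 456 to 528 against 548 to 635 at 24 h, and 361 to 391 against 292 to 403 at 48 h. Neurod1 alone went from a mean of 208 to 537 at 12 h, most of the difference between these sums. Sox1 and Olig2 were below the filter in every group, with mean signals in induced arrays at 12 h of 10.7 and 3.82. The part of neural cells in the Hes6 values was not tested.

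Of the Notch effectors of the Hey family, Hey2 and Hey1 were called after induction at 48 h and Heyl at no time. Hey2, a repressor best known from heart and vessel development, read 12.7, 19.9 and 16.5 in uninduced and 82.0, 54.0 and 62.7 in induced arrays at that time. The 3 induced arrays were the only ones of the 18 to pass a signal of 32, and the change was 1.02 ± 0.120 (limma adjusted p = 3.94e-06). Its size depends on the number added to these dim signals, and was 1.34 with 16 and 0.69 with 64 in place of 32. Earlier, at 12 h, the signals were 16.6, 10.8 and 14.5 against 18.4, 11.4 and 21.4, which overlap (0.092 ± 0.120). At 24 h they were 13.5, 10.2 and 8.52 against 16.02, 18.2 and 24.97, which do not overlap, although the change of 0.27 ± 0.120 did not pass (limma adjusted p = 0.317). Within the induced arm Hey2 rose by 0.92 ± 0.120 from 24 to 48 h (limma adjusted p = 6.97e-06), and within the uninduced arm it stood at 0.18 ± 0.120 (limma adjusted p = 0.344).

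Hey1, a close relative of Hey2, read 105, 140.0 and 105 in uninduced and 238.5, 172 and 192 in induced arrays at 48 h. The induced arrays were all higher, with a change of 0.65 ± 0.179 (limma adjusted p = 0.0241). Leaving out uninduced 48 h replicate 1 or 3 or induced 48 h replicate 1 or 3 ended that call (limma adjusted p up to 0.137). At 12 h the signals were 96.2, 61.6 and 62.0 against 111, 80.3 and 68.2, and at 24 h 83.7, 91.2 and 63.5 against 116, 135 and 66.5. The arms overlapped at both times, with changes of 0.17 ± 0.179 and 0.28 ± 0.179 (limma adjusted p = 0.83 and 0.573). In the induced arm Hey1 rose by 0.78 ± 0.179 from 24 to 48 h (limma adjusted p = 0.00311), and the uninduced arm gave 0.41 ± 0.179 (limma adjusted p = 0.116).

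Heyl, the third Hey gene, stayed dim and was called in no comparison. Its probe set 1419302_at lay between 12.5 and 31.0 over the 18 arrays, and the induction effects were -0.0068, -0.081 and 0.11, each ± 0.124. The second tested probe set, 1438886_at, lay between 3.06 and 24.2, with effects of 0.17, -0.027 and 0.038, each ± 0.165. The remaining probe set, not tested, lay between 1.48 and 20.3. The smallest limma adjusted p of the first 2 in an induction comparison was 0.687.

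**Figure D3:**
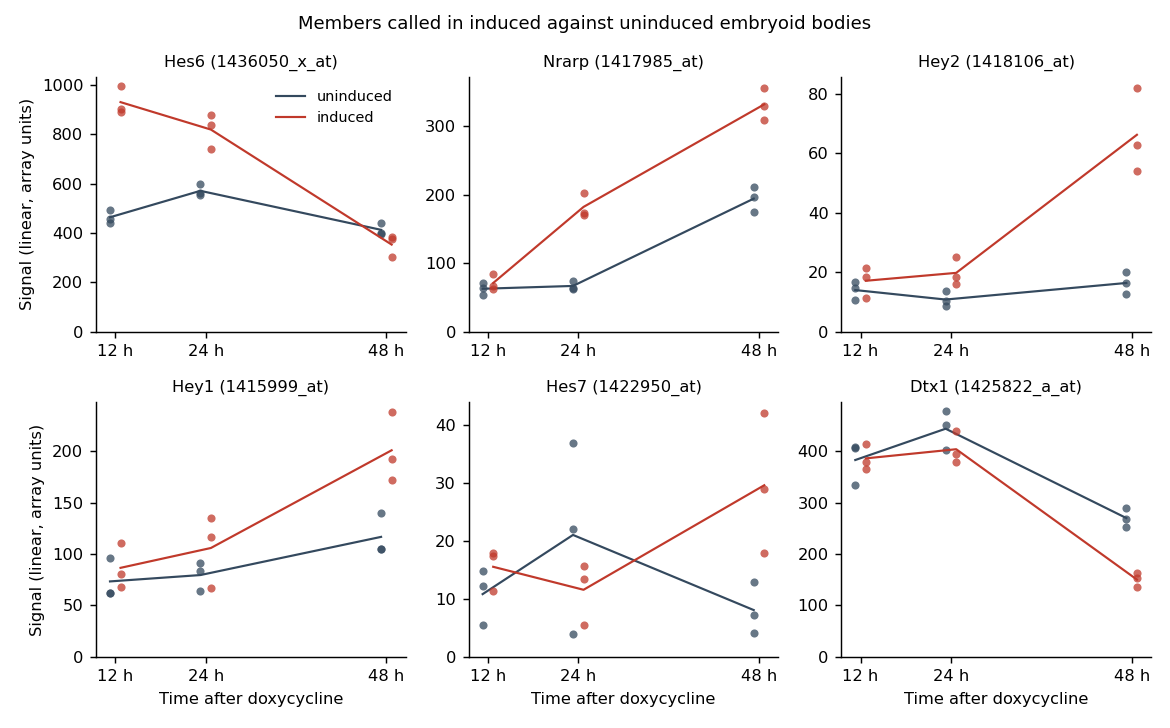
Linear signal of the 6 member genes called in induced against uninduced embryoid bodies, at 12, 24 and 48 h after doxycycline; each point is 1 array, offset slightly in time by arm, lines join group means, and each panel has its own y axis from 0. Hey2 separates at 48 h (54.0 to 82.0 against 12.7 to 19.9), Nrarp at 24 h (171 to 203 against 62.6 to 73.2), and Dtx1 is lower in induced arrays at 48 h (135 to 163 against 252 to 290.3).

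Hes7, the repressor at the core of the mouse segmentation clock, was close to background for most of the series. At 48 h it read 13.0, 4.07 and 7.15 in uninduced and 42.0, 28.9 and 17.9 in induced arrays. The induced arrays were all higher, but 1 of them passed 32, and the change was 0.61 ± 0.182 (limma adjusted p = 0.0383). The call was lost without uninduced 48 h replicate 2 or 3 or without induced 48 h replicate 1 or 2 (limma adjusted p up to 0.204), and with no filter on dim probe sets (limma adjusted p = 0.0649). At 24 h the uninduced arrays spread from 4.01 to 37.0 and covered the induced range of 5.56 to 15.7 (-0.24 ± 0.182, limma adjusted p = 0.655). At 12 h the ranges were 5.46 to 14.8 and 11.3 to 17.9 (0.15 ± 0.182, limma adjusted p = 0.849). In the fit without a block, no change of Hes7 from 1 time to the next was called in either arm. The uninduced change from 24 to 48 h (-0.36 ± 0.182) was called without uninduced 24 h replicate 3 (limma adjusted p = 0.0123), and the induced one (0.49 ± 0.182) without induced 48 h replicate 3 (limma adjusted p = 0.0321). The induced change was also called with replicate number as a block over all times (limma adjusted p = 0.0494) and with only the arrays of the comparison (limma adjusted p = 0.0459).

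Hes1, a Notch target in many tissues and a clock gene, rose late in both arms. From 24 to 48 h it rose by 0.86 ± 0.131 in uninduced and by 0.81 ± 0.131 in induced arrays (limma adjusted p = 5.80e-05 and 1.05e-04). The 3 arrays at 48 h read 297, 271 and 297 without and 407, 349 and 373 with induction. The arms did not overlap, and the difference of 0.35 ± 0.131 did not pass (limma adjusted p = 0.112). It passed with only the arrays of the comparison (limma adjusted p = 0.0267) and with replicate number as a block within each time (limma adjusted p = 0.0317). At 24 h the signals were 142, 173 and 120 against 236, 187 and 184, also without overlap, a difference of 0.41 ± 0.131 (limma adjusted p = 0.128). With replicate number as a block within each time this difference passed (limma adjusted p = 0.0358), though no label says that the numbers pair arrays. At 12 h the 3 signals were 137, 141 and 177 against 123, 107 and 169, which overlap (-0.16 ± 0.131, limma adjusted p = 0.747).

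Hes1 in the induced arm was also called from 12 to 24 h, at 0.52 ± 0.131 (limma adjusted p = 0.0147), where the uninduced arm gave -0.054 ± 0.131. That call was lost without induced 12 h replicate 1 or 2 or without induced 24 h replicate 1 (limma adjusted p up to 0.0967). The induction effect at 24 h minus that at 12 h, the test of whether the arms parted, was 0.57 ± 0.185 and did not pass (limma adjusted p = 0.46). Hes5, a target known chiefly from neural progenitors, was dim throughout. It lay between 3.54 and 31.6 over the 18 arrays in its tested probe set and between 0.883 and 12.4 in the other, and its induction effects were -0.23, -0.02 and 0.055, each ± 0.199.

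Among the modulators that feed back on the pathway is Nrarp, whose largest induction effect was at 24 h. Nrarp encodes a small ankyrin repeat protein that is induced by Notch and dampens it. At 24 h its probe set 1417985_at read 62.6, 73.2 and 64.1 in uninduced and 171, 203 and 173 in induced arrays. The lowest induced array was more than double the highest uninduced one, with a change of 1.12 ± 0.105, a 2.17-fold rise (limma adjusted p = 7.96e-07). At 48 h the signals were 175, 197 and 211 against 357, 330.1 and 310 (309.7 before rounding), and all induced arrays were again higher (0.69 ± 0.105, limma adjusted p = 1.04e-04). The arms overlapped at 12 h, at 53.2, 64.1 and 70.2 against 62.1, 84.3 and 66.4 (0.12 ± 0.105, limma adjusted p = 0.78).

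Nrarp rose in uninduced embryoid bodies too, later than in induced ones. From 24 to 48 h the uninduced arm changed by 1.197 ± 0.105 (limma adjusted p = 4.47e-08), and from 12 to 24 h by 0.064 ± 0.105 (limma adjusted p = 0.829). The induced arm changed by 1.06 ± 0.105 from 12 to 24 h and by 0.77 ± 0.105 from 24 to 48 h (limma adjusted p = 2.34e-06 and 1.40e-05). The induced arrays at 24 h and the uninduced arrays at 48 h, at 171 to 203 and 175 to 211, overlapped in level.

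The second Nrarp probe set, 1417986_at, is dimmer, had the same order of groups and passed fewer tests. At 24 h it read 27.5, 27.8 and 20.1 against 41.7, 51.3 and 54.0, which do not overlap, a difference of 0.50 ± 0.145 (limma adjusted p = 0.0752). At 12 h the arms did not overlap either, at 10.8 to 29.9 against 33.9 to 40.4, while at 48 h they did. The differences at 12 and 48 h were 0.35 ± 0.145 and 0.31 ± 0.145 (limma adjusted p = 0.408 and 0.227). From 12 to 24 h its induced arm changed by 0.24 ± 0.145 and its uninduced arm by 0.089 ± 0.145 (limma adjusted p = 0.327 and 0.827). The change of its induction effect between those times was 0.15 ± 0.205 and did not pass (limma adjusted p = 0.936). From 24 to 48 h this probe set rose by 0.64 ± 0.145 in uninduced and by 0.45 ± 0.145 in induced arrays (limma adjusted p = 0.00298 and 0.0318). The latter call was lost without induced 24 h replicate 1 or 2 or without induced 48 h replicate 3 (limma adjusted p up to 0.148), and with quantile normalization or no filter (limma adjusted p up to 0.059).

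Lfng, which encodes the fringe glycosyltransferase that modifies Notch and cycles in the presomitic mesoderm, was called in no comparison. Its tested probe set read 24.6, 15.2 and 2.02 against 45.5, 4.58 and 34.8 at 12 h, and 2.44, 23.6 and 25.7 against 24.1, 28.3 and 35.7 at 24 h. At 48 h it read 31.5, 38.1 and 15.7 against 43.3, 34.0 and 30.1. The arms overlapped at all 3 times, and single arrays of a group differed widely. The differences were 0.35, 0.35 and 0.18, each ± 0.236, so a rise of the size seen for Hey1 at 48 h lies within 2 standard errors of each. The other Lfng probe set lay between 0.617 and 9.84 on all arrays.

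Dtx1, an E3 ubiquitin ligase of the Deltex family that binds the inner part of Notch, was the only member called lower in induced than in uninduced embryoid bodies. At 48 h its probe set 1425822_a_at read 252, 267 and 290.3 in uninduced and 152, 163 and 135 in induced arrays. The arms were far apart, and Dtx1 was lower in induced embryoid bodies, with a change of -0.73 ± 0.0947 (limma adjusted p = 1.36e-05). At 12 h it read 406, 335 and 408 against 414, 365 and 379, and at 24 h 451, 478 and 403 against 438, 395 and 378. Both times the arms overlapped, with differences of 0.014 ± 0.0947 and -0.13 ± 0.0947 (limma adjusted p = 0.981 and 0.654). From 24 to 48 h Dtx1 fell in both arms, by 0.66 ± 0.0947 without and by 1.26 ± 0.0947 with induction (limma adjusted p = 3.20e-05 and 2.53e-09). Its second probe set lay between 0.801 and 11.2 and was not tested.

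The lower level of Dtx1 in induced arrays at 48 h, and the lower Hes6 signals, which were not called, stood beside lower levels of pluripotency genes. Of the 8 tested, 6 were called lower at that time, among them Sox2 (-1.06) and Nr0b1 (-0.85), and 1, Klf4, was higher (0.76). By probe set, these genes gave 6 lower and 1 higher of 11, where 8.93% of all probe sets were called. Their summed signal was 14050 to 14235 against 13727 to 14540 at 12 h, 12162 to 13246 against 10622 to 12031 at 24 h, and 8879 to 9402 against 5934 to 6853 at 48 h, uninduced first. The part of pluripotent cells in the Dtx1 and Hes6 values was not tested.

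Over the 13 tested probe sets, as over all probe sets, more changes were called from 24 to 48 h than over the shorter interval from 12 to 24 h. In the uninduced arm 1 was called from 12 to 24 h, where 2.41% of all probe sets were called, and 3 higher and 3 lower from 24 to 48 h, where 19.4% were (10.8% higher and 8.54% lower). In the induced arm 2 were called from 12 to 24 h, both higher, against 10.2% of all, and 5 higher and 3 lower from 24 to 48 h, against 20.3% (10.9% higher and 9.44% lower). The genes called higher from 24 to 48 h were Hes1 and Nrarp in the uninduced arm and these with Hey1 and Hey2 in the induced arm, and those called lower were Hes6 and Dtx1 in both. Comparisons that share the 24 h arrays are not independent of each other.

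The change of the induction effect between times was itself tested. From 12 to 24 h 1 member was called, where 0.0502% of all probe sets were: the effect on Nrarp 1417985_at grew by 1.00 ± 0.149 (0.9961 before rounding, limma adjusted p = 0.00578). From 24 to 48 h 4 were called, against 1.95% of all. The effect on Hey2 grew by 0.74 ± 0.169 (limma adjusted p = 0.0209). The effects on the 2 Hes6 probe sets changed by -0.71 ± 0.125 and -0.51 ± 0.134 and that on Dtx1 by -0.60 ± 0.134 (limma adjusted p = 0.00242, 0.0479 and 0.0174). Those on Hey1 (0.37 ± 0.254) and Hes7 (0.85 ± 0.258) did not pass (limma adjusted p = 0.641 and 0.112). The value for Hes7 was called with replicate number as a block within each time (limma adjusted p = 0.0237) and without uninduced 24 h replicate 3 (limma adjusted p = 0.00891). For Hey1 a call at 48 h alone does not show a difference between times.

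Of these 5 calls, those on Nrarp and the first Hes6 probe set held whichever array was left out. The call on Hey2 was lost without uninduced 24 h replicate 1, induced 24 h replicate 1 or 2, uninduced 48 h replicate 1 or induced 48 h replicate 1 (limma adjusted p up to 0.0721). That on Dtx1 was lost without induced 24 h replicate 1, uninduced 48 h replicate 3 or induced 48 h replicate 3 (limma adjusted p up to 0.061). That on the second Hes6 probe set was lost for 9 of the 12 arrays (limma adjusted p up to 0.14), the exceptions being uninduced 24 h replicate 2, induced 24 h replicate 3 and induced 48 h replicate 2, and under 6 of 11 other settings (limma adjusted p up to 0.108). That on Hey2 was also lost with log2(signal + 16) (limma adjusted p = 0.0538).

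The rises of Hey2, Hey1 and Nrarp came with rises of genes of several other cell types. Of the 9 endothelial and blood genes, 2 were called higher at 12 h, 6 at 24 h and 7 at 48 h. By probe set, these genes gave 2, 9 and 9 of 14 higher, against 0.653%, 2.33% and 8.93% of all probe sets called. Their summed signal was 503 to 525 against 673 to 733 at 12 h, 503 to 613 against 1014 to 1235 at 24 h, and 636 to 837 against 1945 to 2188 at 48 h, uninduced first. Kdr, the receptor that marks vessel and blood progenitors, stood at 2.39 ± 0.147 at 48 h (limma adjusted p = 4.39e-10), while the mean signal of Cdh5, an endothelial cadherin, was 37.7 in induced arrays. The endothelial adhesion gene Pecam1 had lower mean signals in induced arrays at all 3 times, 45.8 against 55.4, 37.6 against 54.6 and 19.5 against 24.0 (24.02 before rounding). Of the 7 cardiac genes tested 1 was called higher at 24 h and 3 at 48 h, led by the transcription factor gene Hand2 (2.60 ± 0.157, limma adjusted p = 3.47e-10). By probe set these were 1 and 3 of 9, where 2.33% and 8.93% of all probe sets were called. The summed signal of 8 cardiac genes at 48 h was 312 to 335 against 756 to 926, with Tnnt2 below the filter in every group.

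Primitive streak and endoderm genes were called as well. Of the 8 streak genes 5 were called higher at 24 h, led by Eomes and Lhx1 (1.56 and 1.47, 1.555 and 1.465 before rounding), and 3 at 48 h. By probe set, these genes gave 7 and 3 of 10 higher, where 2.33% and 8.93% of all probe sets were called. Their summed signal was 806 to 1284 against 2052 to 2851 at 24 h and 6325 to 8056 against 7355 to 9299 at 48 h, uninduced first. Of the 6 endoderm genes tested 3 were higher at 24 h, and at 48 h 3 were higher and 3 lower. Among the higher at 48 h were Cxcr4 (1.44) and Gata4 (0.92), and among the lower Foxa2 (-2.04) and Cer1 (-1.64). By probe set, 3 of 10 were higher at 24 h, and 3 higher and 5 lower at 48 h, against the same shares of all. The summed signal of 8 endoderm genes at 48 h was 2055 to 2534 against 1520 to 1662, and Afp and Ttr were below the filter in every group. The part of these cells in the values of Hey2, Hey1 and Nrarp was not tested.

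Of the 11 presomitic genes tested, 5, 7 and 8 were called higher at 12, 24 and 48 h and none lower, and Ripply2 was below the filter in every group. By probe set, 7, 9 and 12 of 17 were higher, where 0.653%, 2.33% and 8.93% of all probe sets were called. The mean signals of Fgf17 and Pcdh8 were lower in induced than in uninduced arrays at all 3 times, and neither was called lower. Their summed signal was 2072 to 2382 against 3786 to 3979 at 12 h, 1967 to 2548 against 3317 to 3869 at 24 h, and 4107 to 4749 against 5629 to 6240 at 48 h. Much of each sum is Dusp6, an FGF feedback gene. Its mean signals, uninduced first, were 1629 and 2298 at 12 h, 1490 and 1656 at 24 h, and 2229 and 1857 at 48 h. At 48 h Dusp6 was thus lower in induced arrays, where the sum was higher. The lists overlap: Dusp6 is counted again among the Wnt and FGF clock genes below, and Dll1 and Dll3 among the Notch ligands and receptors. Feeder fibroblast genes summed to 826 to 950 against 943 to 1090 at 12 h, 815 to 954 against 925 to 991 at 24 h, and 558 to 705 against 709 to 754 at 48 h. Of the 9 fibroblast genes tested, Col1a2, a collagen gene, was the only one called, at 24 and 48 h. By probe set this was 2 of 12 at each of these times, where 2.33% and 8.93% of all probe sets were called.

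**Figure D4:**
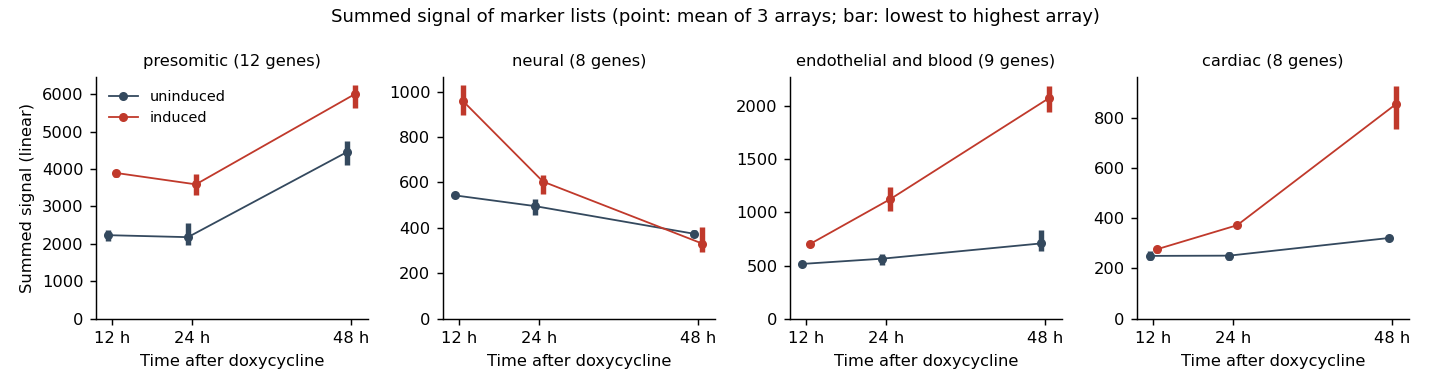
Summed linear signal of presomitic, neural, endothelial and blood, and cardiac marker genes at 12, 24 and 48 h after doxycycline, with the mean of 3 arrays as a point and the lowest to highest array as a bar. Induced arrays lie above uninduced ones in the presomitic and endothelial lists at all 3 times and in the cardiac list at 24 and 48 h, and in the neural list at 12 and 24 h (896 to 1027 against 537 to 550 at 12 h, with Neurod1 at means of 537 and 208).

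Upstream of the members, 5 of 18 probe sets of the 10 genes for Notch ligands and receptors, those of 4 genes, were higher at 12 h, and 13 were not called. At 24 and 48 h 6 and 5 were higher, and none was lower at any of the 3 times, where 0.653%, 2.33% and 8.93% of all probe sets were called. Dll4, Jag2, Dlk1 and Notch2 were called at none of these times. The ligand genes Dll3 and Dll1 stood at 1.74 ± 0.0817 and 1.56 ± 0.129 at 12 h (1.555 before rounding), and the receptor gene Notch1 at 0.77 ± 0.141 (limma adjusted p = 1.56e-11, 1.97e-07 and 0.0071). The receptor gene Notch4 rose at 12 h (0.49 ± 0.101), the ligand gene Jag1 at 24 h (0.69 ± 0.114) and the receptor gene Notch3 at 24 and 48 h (0.53 ± 0.100 at 48 h). The calls on Notch4 and Jag1 rest on 1 probe set each: the other one of Notch4 gave 0.057 at 12 h, and the other 2 of Jag1 gave 0.021 and 0.33 at 24 h (limma adjusted p = 0.926, 0.977 and 0.249). The list's median change was 0.20, 0.26 and 0.07 at the 3 times. Its count at 12 h fell to 3 without uninduced 12 h replicate 1 or 2 or without induced 12 h replicate 1, 2 or 3.

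Few genes of the machinery between ligand and target were called after induction. Of 67 probe sets of 32 genes for cleavage, glycosylation, turnover and nuclear action, limma called none at 12 h and none at 24 h, where 9 and 8 had an unadjusted p under 0.05 and the shares over all probe sets were 0.653% and 2.33%. At 24 h the count was 1 with replicate number as a block within time, with a filter at the 60th percentile or at gene level, 2 without uninduced 24 h replicate 3 and 1 without induced 24 h replicate 1. At 48 h, where 8.93% of all were called, Adam10, the protease that makes the first cut, rose by 0.49 ± 0.0881, and Dtx4, another Deltex gene, fell by 0.61 ± 0.171 (limma adjusted p = 5.96e-04 and 0.0254). The other probe set of each did not pass (limma adjusted p = 0.526 and 0.196). Without uninduced 48 h replicate 1, induced 48 h replicate 1 or induced 48 h replicate 3, or with no filter, the count at 48 h was 1 in place of 2. At 12 h Numbl and Mib1 had the largest values, 0.37 ± 0.140 and 0.26 ± 0.105, and at 24 h Pofut1 and Adam10 had 0.45 ± 0.135 and 0.33 ± 0.0881. The list's median change was -0.014, 0.013 and 0.0023. Over time, between 24 and 48 h, 13 of the 67 were higher and 5 lower in the uninduced arm, against 19.4% of all probe sets called, and 13 higher and 7 lower in the induced arm, against 20.3%.

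Of 37 probe sets of 20 genes listed with the Wnt and FGF branches of the clock, 5 were higher at 12 h and 8 at 24 h. At 48 h 14 were higher and 1 lower, that of Spry2 (-0.54), named here after its value was seen. The share called over all probe sets rose too, from 0.653% to 2.33% and 8.93%. The list also holds Id1 and Id2, so its counts are not of Wnt and FGF genes alone. Dact1, a Wnt modulator, and Id1, a Bmp-responsive repressor, stood at 1.16 ± 0.0977 and 0.74 ± 0.0997 at 12 h, with the FGF feedback genes Spry4 at 0.60 ± 0.111 and Dusp6 at 0.49 ± 0.108. At 24 h Dact1 (1.44 ± 0.0977, 1.445 before rounding), Sp5 (0.88 ± 0.161), Id1 (0.79 ± 0.0997) and Phlda1 (0.69 ± 0.158) led, and at 48 h Phlda1 (1.88 ± 0.158, 1.875 before rounding), Id1 (1.65 ± 0.0997, 1.645 before rounding), Id2 (1.17 ± 0.159) and Nkd1 (1.15 ± 0.139). Other probe sets of some of these genes did not pass. Those of Spry4 gave 0.40 and 0.082 at 12 h (limma adjusted p = 0.209 and 0.905). At 48 h Nkd1 gave 0.69 in a further called probe set, and 0.17 and 0.23 in others (limma adjusted p = 0.618 and 0.494). A probe set of Id2 gave 0.0498 at 48 h (limma adjusted p = 0.886). The median change of the list was 0.083, 0.21 and 0.19. The count at 12 h fell to 3 without uninduced 12 h replicate 1 and to 2 without uninduced 12 h replicate 2 or induced 12 h replicate 2 or 3, and it was 3 in a fit with no trend. That at 24 h fell to 5 without uninduced 24 h replicate 1 or 2 or induced 24 h replicate 3, and to 4 without induced 24 h replicate 2 or with only the arrays of the comparison.

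**Figure D5:**
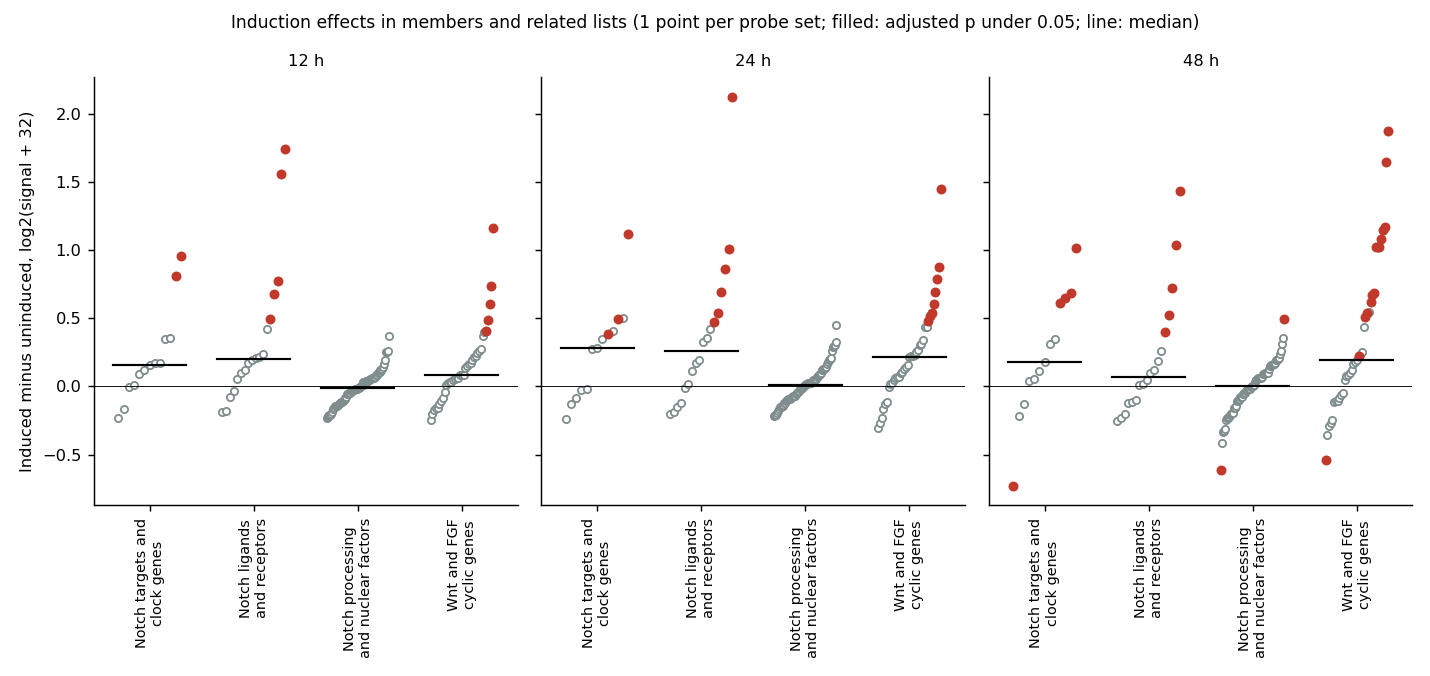
Induction effects at 12, 24 and 48 h on the 13 member probe sets, 18 of Notch ligands and receptors, 67 of Notch processing and nuclear factors and 37 of Wnt and FGF clock genes, a list that also holds Id1 and Id2. Each point is 1 probe set, sorted within its list, on a y axis of the difference of log2(signal + 32); filled points have an adjusted p under 0.05 and lines are medians. In the order of the lists, 2, 5, 0 and 5 points are filled at 12 h, 3, 6, 0 and 8 at 24 h, and 5, 5, 2 and 15 at 48 h.

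For each member the probe sets of other genes whose 6 group means ran most alike were found, by the root mean square difference of profiles after each was centred on its own mean. Nearest to Hes6 were Cldn5, Ankrd6 and Spry4 (0.133, 0.133 and 0.165 on the log2 scale). Nearest to Nrarp was Flt1, a receptor for vascular growth factors (0.105), then Usp3 and Smad1. Hey2 had Pde10a (0.059), Siah2 and Ptprb nearest, and Hey1 had Kctd1 (0.046), Rgl1 and Scml2. Hes1 ran most like Zmiz1 (0.060), Zbtb44 and Ccl20, and Dtx1 most like Bhlha15 (0.079), Syt11 and Mkrn1. For the dim Hes7 and Lfng the nearest were Ap2a1, Gpank1 and Spock1, and Pcnx, Spag9 and Uckl1. Hes5 and Heyl, whose group means span 0.36 and 0.24, were too flat for this measure. With 6 group means from shared arrays these likenesses are descriptions.

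The order of the group means sets the members apart from each other. Nrarp in both probe sets and Hey1 were lowest in uninduced arrays at 12 h and highest in induced arrays at 48 h, with the other groups in the same order. For Nrarp 1417985_at the neighbours whose arrays overlapped were the 3 lowest groups among themselves and induced 24 h with uninduced 48 h. For Hey1 only the highest group, induced 48 h, stood clear of its neighbour. Hes1 had its 2 highest groups at 48 h, each clear of its neighbour. Hes6 and Dtx1 were lowest in induced arrays at 48 h, with uninduced 48 h next. Hey2 kept its other 5 groups, from 8.52 to 24.97, in overlapping order under induced 48 h.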

How the data were processed

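RNA of 18 embryoid body samples was labelled from 100 ng each and hybridised to single-channel Affymetrix arrays, per the labels' protocols. The deposited values are signal intensity on a linear scale, 1 per probe set and array. The submitters' processing notes name GCOS as the authors' software, and which signal algorithm it ran is not given in the sources used here. The 2% trimmed mean of the deposited intensity was 150 on every array. Groups and replicate numbers came from the sample titles.

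The analysis used log2(signal + 32). Medians of the arrays differed by at most 0.0922 on that scale, under the limit of 0.25, so no normalization was added. Of 45101 probe sets, 64 were controls, 932 had several gene symbols and 9160 none; of 34945 with 1 symbol (34741 matched by Entrez identifier), 25895 of 14282 genes were kept because in some group the mean was at or above a signal of 13.3, which is percentile 40 of all values. limma 3.58.1 in R 4.3.3 fitted 1 mean per group with 12 residual degrees of freedom and moderated variances with an intensity trend; 2-sided p-values were adjusted by Benjamini-Hochberg over these probe sets. The steps were tested on simulated data. Figures used matplotlib 3.10.9.

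Same-numbered arrays deviated together at 24 h (correlations 0.19, 0.11 and 0.41). They did not do so at 12 h (-0.0086, 0.074 and -0.085) or 48 h (-0.084, -0.023 and 0.13). No label gives the meaning of the numbers, and the main fit paired no arrays at any time. Replicate number entered only as a block in alternative fits, over all times or within each time. All tested members were named, with up to 4 called genes per other list and comparison (or 2 with values only) and the 3 nearest profiles. The members, lists and tests were chosen with earlier results of these data known. Alternatives were quantile normalization, other offsets, filters, variance models and probe set choices, the replicate block, the arrays of a comparison alone, and each array left out.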

Additional observations from a re-analysis of the deposited data

Results flagged for a closer look

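The size of the induction effect differed between times for 5 member probe sets, each by the test of the difference itself (limma, adjusted over 25895 probe sets). From 12 to 24 h the effect on Nrarp 1417985_at grew by 0.9961 on the log2(signal + 32) scale, from 0.12 to 1.12. From 24 to 48 h the effect on Hey2 1418106_at grew by 0.7425, from 0.27 to 1.02. Over the same interval the effect on Hes6 changed by -0.7094 in probe set 1436050_x_at, from 0.50 to -0.21, and by -0.5149 in 1452021_a_at, from 0.38 to -0.13. That on Dtx1 1425822_a_at changed by -0.6032, from -0.13 to -0.73. The induction effects at 2 times share no array, while the differences for 24 to 48 h and for 12 to 24 h share the 24 h arrays.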

How the results depend on the processing

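Of 32 calls on members over 9 comparisons, 26 held under all settings other than leaving out an array, 23 held whichever array was left out, 23 held under every alternative, and 0 reversed. With 1 probe set per gene, 1 member was called at 12 h in place of 2 probe sets, since Hes6 then counts once. For uninduced 24 h minus 12 h, limma called 0 members in place of 1 at gene level and 0 with only the arrays of the comparison, where 2 had an unadjusted p under 0.05 in each. With log2(signal + 16) the change of the effect from 24 to 48 h was called for 2 in place of 4. Without single arrays the counts ran from 0 to 1 for uninduced 24 h minus 12 h, from 1 to 2 for induced 24 h minus 12 h, from 3 to 4 in place of 5 for induction at 48 h (3 without uninduced 48 h replicate 3 or induced 48 h replicate 1), and from 1 to 4 for the change of effect from 24 to 48 h. With replicate number as a block within time, 4 members were called at 24 h in place of 3, with Hes1 added, 6 in place of 5 at 48 h, again with Hes1 (limma adjusted p = 0.0317), and 5 in place of 4 for the change of effect from 24 to 48 h, with Hes7 added (limma adjusted p = 0.0237). At 12 h the count stayed at 2. The same block gave 4 called probe sets of Notch processing and nuclear factors at 48 h in place of 2. With the block over all times 3 changes of effect were called there, and the block changed no other call of a member in that setting except Hes7 from 24 to 48 h in the induced arm (limma adjusted p = 0.0494). Signal over background is the limit for Hes5, Hes7, Heyl and Lfng, of which Hes5 and Heyl passed a signal of 32 on no array, Hes7 on 2 and Lfng on 6. Hey2 passed it on 3 arrays, all induced at 48 h, and was as dim elsewhere.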
